A study of Homo sapiens with 4 samples.

Results

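The mRNAs described here encode the heat shock proteins, their DNAJ partners and the cytosolic chaperonin. They were taken by gene symbol from RNA immunoprecipitation and sequencing (RIP-seq) of HEK293T cells, a line from human embryonic kidney with the large T antigen of SV40. Members were symbols that begin with HSPA, HSPB, HSPD, HSPE, HSPH, HSP90, DNAJA, DNAJB or DNAJC, plus TCP1, CCT2, CCT3, CCT4, CCT5, CCT6A, CCT7 and CCT8. Symbols with a pseudogene suffix (P with an optional number), antisense and divergent transcripts, HSPBP1 and HSPBAP1 were dropped. This left 85 members among the 44715 gene symbols of each table. HSPA7 and DNAJB3 (transcribed pseudogenes in RefSeq) and HSPB2-C11orf52 (a long non-coding RNA there) lack that suffix and stayed, at 0 in all 4 libraries. All 4 libraries came from the same line, and the labels name no genotype and no treatment other than the antibody. Lysates were incubated with an anti-PHGDH antibody (2 libraries) or with a control IgG antibody (2 libraries), and the RNA released from the beads was sequenced. PHGDH is the first enzyme of serine synthesis, and the comparison asks which RNAs come down with it under native conditions. The 2 libraries of a group are described by the submitters as biological replicates of 1 cell line, and no library of the lysate before precipitation was analysed here. As in any bulk sample, fewer cells carrying an mRNA and less of it per cell cannot be told apart.

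Molecular chaperones bind unfolded protein chains and help them reach their native shape. HSP70 proteins (the HSPA genes) grip short hydrophobic stretches in a cycle of ATP hydrolysis, which DNAJ proteins start through their J domain and HSPH proteins help to reset. HSP90 acts later on kinases and receptors, the small HSPB proteins hold unfolded chains without ATP, HSPD1 with HSPE1 forms the folding chamber of mitochondria, and TCP1 with the CCT proteins forms the ring that folds actin and tubulin in the cytosol. Many of these genes are switched on in stressed cells by HSF1, a transcription factor that binds heat shock elements in their promoters.

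The libraries were not alike before any comparison of the chaperones. Values are reads of a gene per 1000000 reads assigned to genes (CPM), and each pair of values is given for replicates 1 and 2 in that order. The read totals ran from 1216477 (anti-PHGDH replicate 2) to 3875746 (IgG replicate 1). IgG replicate 1 listed only 4148 genes above 0, against 14518 to 16767 in the other 3 libraries, and is referred to as standing apart. The share of reads from mitochondrially encoded genes was 28.8% in anti-PHGDH replicate 1, against 3.37% to 8.69% elsewhere. PHGDH itself was at 6550.2 and 1531 CPM with the antibody and at 0 and 461 CPM with IgG. Of 8 genes that HEK293T is known to express, 8 were above 0 in each library except IgG replicate 1, where 4 were. Leukocyte, red cell, liver and fibroblast markers summed to between 0.258 and 28.8 CPM over 11 genes, with PTPRC, CD3E, HBB and COL1A2 at 0 throughout.

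No chaperone mRNA differed between the antibodies past the test's threshold. Of the 85 members, 54 passed the filter of at least 5 CPM in at least 2 libraries. In limma on log2(CPM + 1), 0 of these 54 had an adjusted p under 0.05 in either direction, where 0.0105% of all 9524 genes tested were called higher and 0% lower. The members also gave 0 calls at an unadjusted p under 0.05, against 2.74% of all genes tested, and edgeR and DESeq2 on the recovered reads gave 0 at an adjusted p under 0.05 (the unadjusted p was under 0.05 for 2 members in edgeR and for 1 in DESeq2, all lower). The limma adjusted p of the members ran from 0.677 to 0.964. This fit took the variance of each gene wholly from the trend over genes of like level. The SE and p given for a gene therefore do not measure the spread of its own replicates. The median log2 fold change of the 54 members, anti-PHGDH minus IgG, was 1.13, beside 1.92 for all genes tested. It was positive for 33 members (61.1%), beside 80.7% of all genes tested. Without IgG replicate 1 the median was -0.21 (all genes 0.14), so the sign of the members' median rested on that library. It also turned with the scaling: after centring on library medians it was -1.36 (all genes -0.57), with 7 members positive. When limma was fitted without IgG replicate 1, 0 members were called in either direction, beside 1.04% of all genes called higher and 0.0315% called lower. Fitted without IgG replicate 2, it called 33 members higher, beside 74.9% of all genes, and 9 lower, beside 10.8%. In that fit the lone IgG replicate 1 was assumed to vary like the other group.

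Rules on the values alone, with no variance estimate, gave counts that depended on the libraries compared. DNAJC4 and DNAJC14 were at least 2-fold higher (on CPM + 1) in each anti-PHGDH library than in each IgG library, 2 of 54 members, where 9.3% of all genes tested were. The opposite held for 0 of 54 members, beside 0.084%. With IgG replicate 1 left out, 2 members were at least 2-fold higher in both pairs, beside 10% of all genes tested, and 0 were 2-fold lower, beside 0.388%. Within number 1 alone, 33 members were at least 2-fold higher, beside 76.6% of all genes tested, and 19 were 2-fold lower, beside 15.3%. Both anti-PHGDH values lay above both IgG values for 10 members (18.5%), beside 38.3% of all genes tested. Both lay below both IgG values for 11 members (20.4%), beside 6.16% of all genes tested. These 11 were HSP90AA1, HSP90AB1, HSP90B1, HSPD1, HSPE1, TCP1, CCT5, CCT8, HSPH1, DNAJA1 and DNAJC3. Genes at 0 in IgG replicate 1 cannot lie below it, and 42.6% of the members were at 0 there against 61.9% of all genes tested. Without IgG replicate 1, both anti-PHGDH values lay below IgG replicate 2 for 24 of 54 members (44.4%), beside 25.1% of all genes tested, and above it for 12 (22.2%), beside 43.9%.

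**Figure D1:**
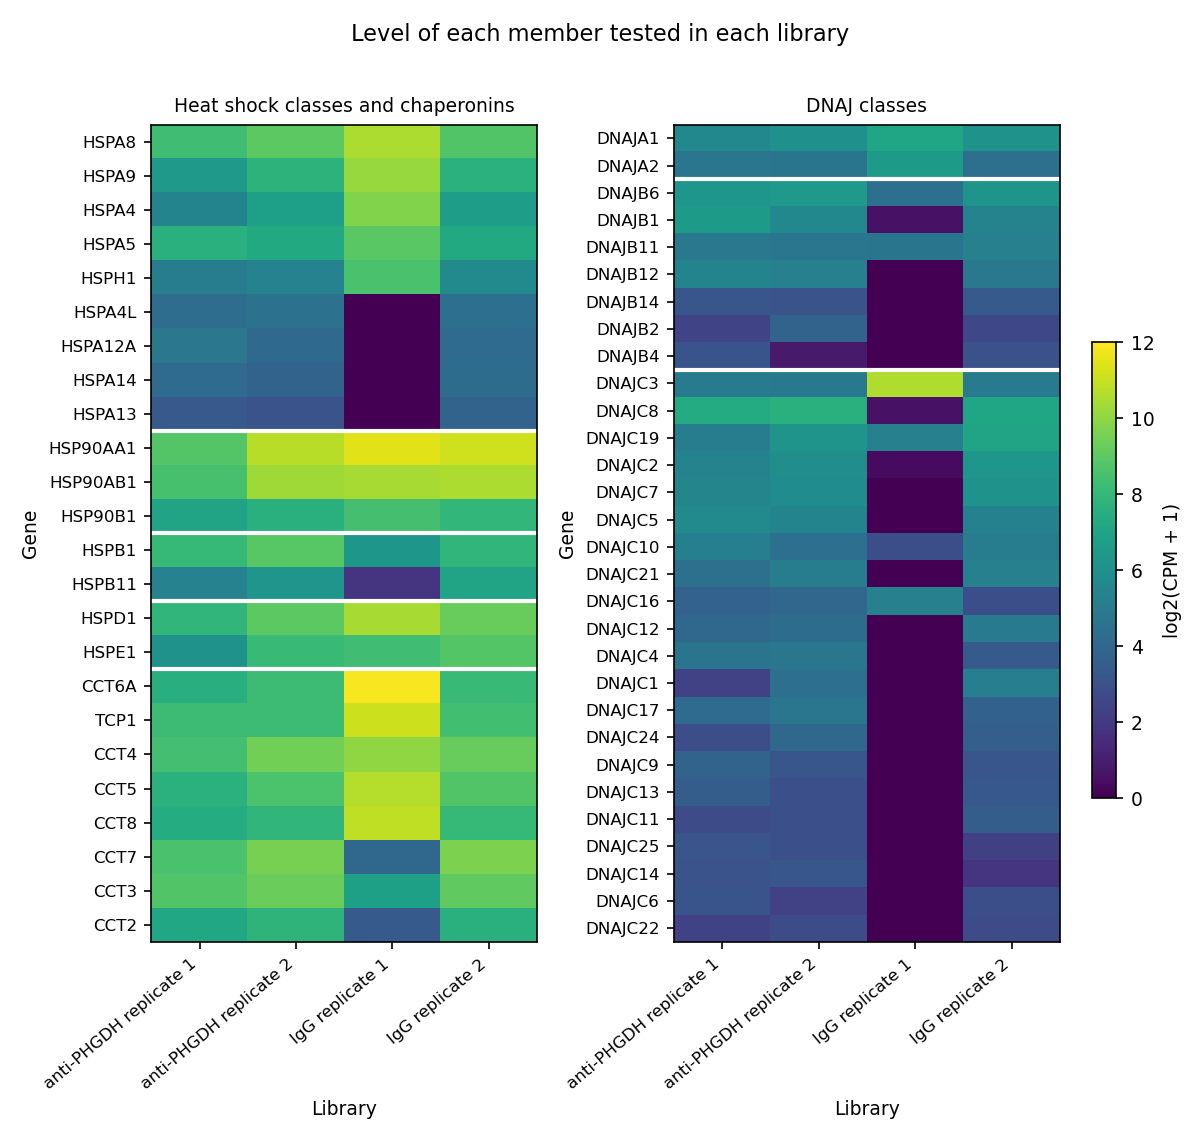
Level of each of the 54 members tested, as log2(CPM + 1) by colour, with genes in rows, libraries in columns and white lines between classes. The IgG replicate 1 column is at 0 for 19 of the 30 DNAJ genes and for 4 of the 24 others, and holds the highest value of the plot, CCT6A at 3833 CPM.

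Outside the DNAJ genes, 4 of 24 members tested (16.7%) were at 0 in IgG replicate 1, beside 61.9% of all genes tested, and 13 of 24 (54.2%) had their highest value there, beside 16.3% of all genes tested. Among the DNAJ genes 19 of 30 (63.3%) were at 0 and 4 (13.3%) were highest there, both near the shares of all genes. The level in the other libraries moved with this split. The median in IgG replicate 2 was 196 CPM for the 31 members above 0 in IgG replicate 1 and 11.4 CPM for the 23 members at 0. For all genes tested these medians were 41.2 and 13.3 CPM. A count of 0 in IgG replicate 1 allows up to 3 reads, or 0.774 CPM, a limit that covers counting error only. The part of abundance in the split was not tested.

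Summed over all 85 members, the chaperone share of reads was 0.532% in anti-PHGDH replicate 1 (Wilson 95% limits 0.524 to 0.540%), 0.999% in anti-PHGDH replicate 2 (0.981 to 1.02%), 2.32% in IgG replicate 1 (2.30 to 2.33%) and 1.08% in its replicate 2 (1.07 to 1.10%). These intervals cover counting error only, and reads that are PCR copies of 1 molecule may be counted separately. The share was lowest in an anti-PHGDH library and highest in an IgG library. The libraries numbered 2 lay close together, at a ratio of 0.923. With the mitochondrial genes left out of the totals, the sums were 7476 and 10939 CPM with anti-PHGDH and 24132 and 11200.2 CPM with IgG, in the same order.

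**Figure D2:**
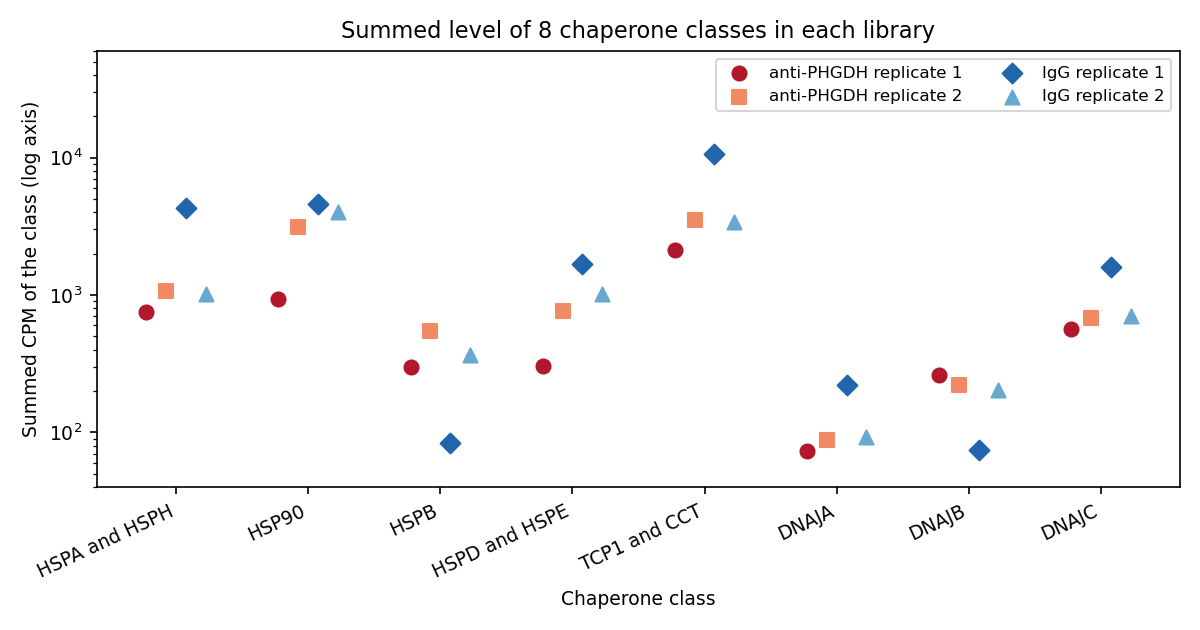
Summed CPM of each of the 8 chaperone classes (log axis), 1 point per library. HSP90, the HSPD and HSPE class, DNAJA and DNAJC have both anti-PHGDH points under both IgG points, HSPB and DNAJB are lowest in IgG replicate 1, and the anti-PHGDH to IgG ratio within number 2 is 0.750 for HSPD and HSPE and 1.02 for TCP1 and CCT.

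The HSP90 class showed the largest gap between the anti-PHGDH libraries. Its 3 genes summed to 929 and 3116 CPM after anti-PHGDH, a mean of 2023 ± 1547 CPM (SD, n = 2). After IgG they summed to 4593 and 3996 CPM, a mean of 4295 ± 422 CPM (SD, n = 2). Both anti-PHGDH sums lay below both IgG sums. The difference of the means was larger than the SD of either group, but 2 libraries a group allow no two-sided exact permutation p below 1 in 3, so no test of the sums was made. Anti-PHGDH replicate 1 held 0.298 times the sum of anti-PHGDH replicate 2, and 0.382 times when mitochondrial genes were left out of the totals. The ratio within number 2 was 0.780.

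HSP90AA1, the stress-inducible cytosolic form (chr14:102080742-102139749, GRCh38.p14), gave 441 and 1661 CPM after anti-PHGDH, against 2854 and 2267 CPM after IgG. Its log2 fold change came to -1.57 (SE 1.14, limma adjusted p = 0.677). HSP90AB1, the constitutive cytosolic form (chr6:44246194-44253883), gave 360.4 and 1260.2 CPM after anti-PHGDH, against 1388 and 1483 CPM after IgG, a log2 fold change of -1.09 (SE 1.20, limma adjusted p = 0.677). The 2 cytosolic forms thus ordered the libraries alike at the low end, with anti-PHGDH replicate 1 lowest. HSP90B1, the form of the endoplasmic reticulum, gave 128 and 195 CPM after anti-PHGDH, against 352 and 246 CPM after IgG (log2 fold change -0.89, SE 1.49, limma adjusted p = 0.698). Both anti-PHGDH values lay below both IgG values for all 3, beside 6.16% of all genes tested, and none passed the threshold. The log2 fold changes were -1.40, -1.14 and -0.64 without IgG replicate 1, and -0.61, -0.19 and -0.59 without anti-PHGDH replicate 1.

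Some abundant members share a promoter feature that the choice by symbol did not read directly. Many of these genes are switched on by HSF1 through this feature, so the choice is not independent of it. RefSeq promoter windows (GRCh38.p14, 250 bases before to 50 after an annotated start) were found for 74 of the 85 members. The heat shock element was searched as 3 units, GAA then TTC then GAA, with NN (2 bases of any kind) between neighbours, on either strand, so that it also appears as TTC then GAA then TTC. It occurred in 7 of 74 members (9.46%) and in 166 of all 27305 symbols with a window (0.608%), each symbol counted once. The 7 were DNAJA1, DNAJB6, HSP90AA1, HSP90AB1, HSPA6, HSPA8 and HSPD1, and 6 of them were tested here. The match is a description of these letters and not evidence of binding. The windows of the abundant HSP90AA1 (chr14:102086995-102087294, minus strand), HSP90AB1 (chr6:44247693-44247992, plus strand), HSPA8 (chr11:123062087-123062386, minus strand) and HSPD1 (chr2:197499791-197500090, minus strand) are shown to let the element be seen, with the matches in capitals. HSP90AA1 holds 1 match and the others hold 2, which overlap each other in HSPD1.
HSP90AA1: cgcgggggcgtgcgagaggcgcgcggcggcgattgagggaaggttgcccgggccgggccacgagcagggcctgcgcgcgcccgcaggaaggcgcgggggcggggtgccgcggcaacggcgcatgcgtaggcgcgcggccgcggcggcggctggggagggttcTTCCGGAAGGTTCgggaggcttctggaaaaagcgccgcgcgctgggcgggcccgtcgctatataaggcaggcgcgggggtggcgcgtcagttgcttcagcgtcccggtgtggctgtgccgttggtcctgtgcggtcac
HSP90AB1: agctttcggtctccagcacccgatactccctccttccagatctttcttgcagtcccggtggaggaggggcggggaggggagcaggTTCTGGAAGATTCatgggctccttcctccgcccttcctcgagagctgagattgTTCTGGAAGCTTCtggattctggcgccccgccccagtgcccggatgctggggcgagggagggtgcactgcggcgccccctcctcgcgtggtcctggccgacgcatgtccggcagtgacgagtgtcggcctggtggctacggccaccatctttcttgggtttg
HSPA8: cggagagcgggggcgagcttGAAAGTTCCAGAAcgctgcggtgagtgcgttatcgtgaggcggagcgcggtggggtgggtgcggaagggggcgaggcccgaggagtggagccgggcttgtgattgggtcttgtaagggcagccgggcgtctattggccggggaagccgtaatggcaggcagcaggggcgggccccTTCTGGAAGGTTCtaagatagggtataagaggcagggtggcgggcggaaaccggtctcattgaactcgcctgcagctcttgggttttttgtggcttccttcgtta
HSPD1: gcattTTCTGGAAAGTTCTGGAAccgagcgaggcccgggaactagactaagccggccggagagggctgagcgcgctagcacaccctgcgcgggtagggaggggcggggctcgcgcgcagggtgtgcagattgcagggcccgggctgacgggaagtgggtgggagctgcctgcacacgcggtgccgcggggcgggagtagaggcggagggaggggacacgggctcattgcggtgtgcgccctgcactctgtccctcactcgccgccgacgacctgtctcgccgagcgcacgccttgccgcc
The mRNAs of these 4 genes were at 1357 to 2854 CPM in IgG replicate 1, and each was lowest in anti-PHGDH replicate 1. The other 3 genes with the element were not alike. DNAJA1 was also lowest in anti-PHGDH replicate 1 (47.8 CPM), and HSPA6 was listed at 0 throughout. DNAJB6 was lowest in IgG replicate 1 (20.4 CPM, against 74.1 to 87.1 CPM elsewhere). Among members not found with a match, HSPE1, HSPA9, CCT5, CCT6A and CCT8 were also lowest in anti-PHGDH replicate 1. HSPE1 is no clear case of a gene away from the element. The HSPD1 window with its matches ends at chr2:197500090, near the HSPE1 start at chr2:197500379. TCP1, CCT2, CCT3 and CCT7 were not lowest in that library. CCT6A was at 3833 CPM in IgG replicate 1. The order was thus not particular to genes with the element.

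The HSPA and HSPH class held its highest sum in IgG replicate 1. The sum was 748 and 1074 CPM after anti-PHGDH, against 4306 and 1019 CPM after IgG. The ratio within number 2 was 1.05. Without IgG replicate 1 the log2 ratio of the group means was -0.16 in place of -1.55.

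HSPA8 (chr11:123057489-123062462), the constitutive HSC70 of the cytosol, gave 314 and 498 CPM after anti-PHGDH, against 1462 and 432 CPM after IgG (log2 fold change -1.01, SE 1.29, limma adjusted p = 0.677). HSPA9, the HSP70 of the mitochondrial matrix that also drives protein import, gave 90.02 and 213 CPM after anti-PHGDH, against 1132 and 200.1 CPM after IgG (log2 fold change -1.77, SE 1.45, limma adjusted p = 0.677). HSPA4, a nucleotide exchange factor of the HSP110 group, gave 41.6 and 108 CPM after anti-PHGDH, against 852 and 106 CPM after IgG. Its log2 fold change came to -2.15 (SE 1.60, limma adjusted p = 0.677). In all 3, IgG replicate 1 stood far above the other libraries while the members of number 2 were close to each other.

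HSPH1, the stress-inducible HSP110 protein, gave 32.7 and 38.6 CPM after anti-PHGDH, against 373 and 52.6 CPM after IgG, and its groups did not overlap (log2 fold change -1.95, SE 1.83, limma adjusted p = 0.677). HSPA5, the HSP70 of the endoplasmic reticulum also called BiP, gave 195 and 153 CPM after anti-PHGDH, against 484 and 154 CPM after IgG. Over HSPA8, HSPA9, HSPA4, HSPA5 and HSPH1, IgG replicate 1 held from 3.13 to 8.01 times the level of IgG replicate 2, while anti-PHGDH replicate 2 held from 0.735 to 1.15 times. The lower-level members HSPA4L, HSPA12A, HSPA13 and HSPA14 were at 0 in IgG replicate 1 and at 13.3 to 19.6 CPM in IgG replicate 2. They were at 9.21 to 26.1 CPM in anti-PHGDH replicate 1 and at 7.40 to 22.2 CPM in anti-PHGDH replicate 2. The class therefore held both extremes of IgG replicate 1 at once.

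The classical stress-inducible HSP70 genes were barely seen. HSPA1A and HSPA6 were listed at 0 in all 4 libraries. HSPA1B gave 1.19 and 4.11 CPM after anti-PHGDH, against 3.10 and 5.07 CPM after IgG, which is 4, 5, 12 and 8 reads. HSPA1A and HSPA1B are near-identical neighbours on chromosome 6, and how reads that fit both were counted is not stated. Their split and their level are therefore uncertain, since both would be listed too low if such reads were left out.

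HSPB1 was the only member tested outside the DNAJ classes with both anti-PHGDH values above both IgG values (4.17%, beside 38.3% of all genes tested). HSPB1 (chr7:76302673-76304292), the small heat shock protein HSP27, gave 261 and 470.2 CPM after anti-PHGDH (878 and 572 reads), against 80.5 and 236 CPM after IgG (312 and 373 reads). The groups did not overlap, but anti-PHGDH replicate 1 lay only 1.10 times above IgG replicate 2. The log2 fold change came to 1.34 (SE 1.49, limma adjusted p = 0.677), and -1.16 after centring on library medians. Within number 2 the ratio was 1.99 (exact 95% interval 1.74 to 2.27, counting error only). HSPB11, named IFT25 in RefSeq and a part of the ciliary transport machinery, gave 38.3 and 74.8 CPM after anti-PHGDH, against 2.58 and 126 CPM after IgG. Its groups overlapped, and its log2 fold change of 1.36 (SE 2.16, limma adjusted p = 0.690) was -1.22 without IgG replicate 1. None of the other 7 HSPB members passed the filter.

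For the mitochondrial chaperonin pair, both anti-PHGDH values lay under both IgG values, beside 6.16% of all genes tested. HSPD1 (chr2:197486584-197500274), the HSP60 chamber, gave 236 and 495 CPM after anti-PHGDH, against 1357 and 583 CPM after IgG (log2 fold change -1.38, SE 1.29, limma adjusted p = 0.677). HSPE1 (chr2:197500379-197503449), the HSP10 lid that is transcribed away from HSPD1, gave 67.4 and 274 CPM after anti-PHGDH, against 317 and 442 CPM after IgG (log2 fold change -1.45, SE 1.48, limma adjusted p = 0.677). The values were -0.77 and -1.69 without IgG replicate 1, and -0.84 and -0.45 without anti-PHGDH replicate 1. The pair was thus held differently by IgG replicate 1, at 2.33 times the level of IgG replicate 2 for HSPD1 and at 0.716 times for HSPE1. Many processed HSPE1 pseudogenes exist, and the deposited tables list some of them above 0, at up to 5.07 CPM, so reads of HSPE1 may be split among copies.

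The 8 subunits of the cytosolic chaperonin ring stand in the ring in equal number, and their mRNAs were close to each other in ratio in 3 of the libraries. Anti-PHGDH replicate 2 held from 0.902 (TCP1) to 1.19 (CCT4) times the level of IgG replicate 2. Anti-PHGDH replicate 1 held from 0.468 (CCT5) to 0.916 (TCP1) times that level. IgG replicate 1 held from 0.0191 (CCT7) to 14.1 (CCT6A) times that level, a range of 742-fold over the 8 subunits. IgG replicate 1 thus took subunits of 1 complex to both ends of the scale.

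CCT6A (chr7:56051765-56063989) gave 186 and 295 CPM after anti-PHGDH, against 3833 and 271 CPM after IgG (log2 fold change -2.12, SE 1.32, limma adjusted p = 0.677). CCT8 gave 173 and 241 CPM after anti-PHGDH, against 1829 and 263 CPM after IgG (log2 fold change -1.76, SE 1.37, limma adjusted p = 0.677). TCP1 gave 299.8 and 295 CPM after anti-PHGDH, against 2197 and 327 CPM after IgG (log2 fold change -1.51, SE 1.31, limma adjusted p = 0.677). TCP1, CCT5 and CCT8 had both anti-PHGDH values below both IgG values, 3 of 8 subunits (37.5%), beside 6.16% of all genes tested. CCT6A did not have this because IgG replicate 2 lay between the anti-PHGDH values.

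CCT5 gave 199.7 and 388 CPM after anti-PHGDH, against 1599 and 427 CPM after IgG (log2 fold change -1.57, SE 1.32, limma adjusted p = 0.677). CCT4 gave 341 and 706 CPM after anti-PHGDH, against 1042 and 592 CPM after IgG (log2 fold change -0.68, SE 1.27, limma adjusted p = 0.720). The remaining subunits went the other way in IgG replicate 1. CCT7 (chr2:73234308-73253005) gave 377 and 743 CPM after anti-PHGDH, against 15.2 and 798 CPM after IgG. CCT2 gave 141 and 219 CPM after anti-PHGDH, against 9.55 and 196 CPM after IgG. CCT3 gave 421 and 606 CPM after anti-PHGDH, against 111 and 542 CPM after IgG. CCT2, CCT3 and CCT7 were singled out after their values were seen. The sum of the ring was 2139 and 3494 CPM with anti-PHGDH and 10636 and 3417 CPM with IgG, and its log2 ratio of group means was -1.32, or -0.28 without IgG replicate 1.

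**Figure D3:**
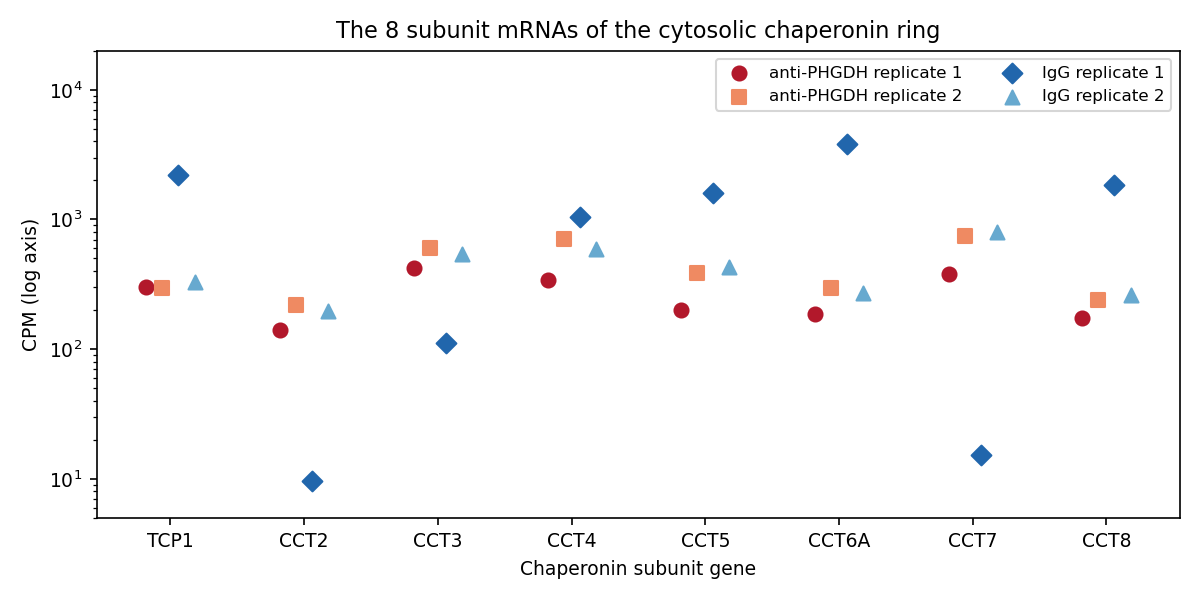
CPM (log axis) of the 8 subunit mRNAs of the cytosolic chaperonin, 1 point per library. The points of IgG replicate 1 lie above the other libraries for TCP1, CCT4, CCT5, CCT6A and CCT8 and below them for CCT2, CCT3 and CCT7, while anti-PHGDH replicate 2 and IgG replicate 2 stay within a ratio of 0.902 to 1.19.

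The DNAJA genes, J-domain proteins of the general cytosolic HSP70 cycle, were highest in IgG replicate 1. DNAJA1 gave 47.8 and 63.3 CPM after anti-PHGDH, against 131 and 70.9 CPM after IgG, with no overlap (log2 fold change -0.80, SE 1.82, limma adjusted p = 0.763). DNAJA2 gave 25.3 and 24.7 CPM after anti-PHGDH, against 90.6 and 20.3 CPM after IgG (log2 fold change -0.77, SE 2.16, limma adjusted p = 0.808). DNAJA2 had the opposite sign without IgG replicate 1, at 0.29. DNAJA3, the mitochondrial member, was listed at 0 in all 4 libraries.

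The DNAJB class had its highest sum in an anti-PHGDH library. Its members summed to 264 and 222 CPM after anti-PHGDH, a mean of 243 ± 29.4 CPM (SD, n = 2). After IgG they summed to 74.8 and 204 CPM, a mean of 139 ± 91.2 CPM (SD, n = 2). The sums did not overlap, and the gap between anti-PHGDH replicate 2 and IgG replicate 2 was a ratio of 1.09. DNAJB1, the stress-inducible HSP40, gave 90.6 and 47.7 CPM after anti-PHGDH, against 0.516 and 39.9 CPM after IgG, where the first IgG value is 2 reads (log2 fold change 3.08, SE 2.38, limma adjusted p = 0.677). It was 0.71 without IgG replicate 1. DNAJB6, which keeps polyglutamine proteins from aggregating, gave 78.1 and 87.1 CPM after anti-PHGDH, against 20.4 and 74.1 CPM after IgG (log2 fold change 1.06, SE 1.92, limma adjusted p = 0.713, and -1.44 after centring on library medians). DNAJB12, a membrane J protein of the endoplasmic reticulum, gave 41.3 and 36.2 CPM after anti-PHGDH, against 0 and 26.6 CPM after IgG (log2 fold change 2.92, SE 2.65, limma adjusted p = 0.677). For these 3 of the 7 DNAJB members tested (42.9%), both anti-PHGDH values lay above both IgG values, near the 38.3% of all genes tested. The counting interval did not separate their ratios within number 2 from 1. DNAJB11, a soluble cofactor of BiP, was nearly level, with 26.7 and 25.5 CPM after anti-PHGDH, against 24.5 and 36.7 CPM after IgG (log2 fold change -0.19, SE 2.24, limma adjusted p = 0.955).

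The DNAJC class is the most diverse, since its members share the J domain alone. Of its 21 members tested, 15 (71.4%) were at 0 in IgG replicate 1, beside 61.9% of all genes tested, and these had a median of 10.7 CPM in anti-PHGDH replicate 1, 15.6 CPM in anti-PHGDH replicate 2 and 10.8 CPM in IgG replicate 2. The sum of the class was 565 and 679 CPM with anti-PHGDH and 1610.3 and 707 CPM with IgG. That sum turned on 1 gene. DNAJC3 (chr13:95677139-95794988), the p58IPK cochaperone of the endoplasmic reticulum that also restrains eIF2alpha kinases, gave 30.6 and 27.95 CPM after anti-PHGDH, against 1531 and 31.02 CPM after IgG. IgG replicate 1 held 49.3 times the level of IgG replicate 2, and the log2 fold change came to -2.87 (SE 1.78, limma adjusted p = 0.677), the lowest of the members. It was -0.08 without IgG replicate 1. Without DNAJC3 the log2 ratio of the class's group means was 0.65 in place of -0.90.

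DNAJC8 (chr1:28200278-28233029), a J protein found with spliceosomes, had the highest log2 fold change of the members. It gave 165 and 192 CPM after anti-PHGDH, against 0.516 and 136 CPM after IgG, from 554, 234, 2 and 215 reads in turn. Its difference of 3.63 on the log2 scale (SE 1.97, limma adjusted p = 0.677) was 0.38 without IgG replicate 1. DNAJC5, the cysteine string protein of secretory vesicles, gave 52.0 and 41.9 CPM after anti-PHGDH, against 0 and 37.99 CPM after IgG (log2 fold change 2.93, SE 2.55, limma adjusted p = 0.677), which became 0.29 without IgG replicate 1. The high fold changes of both thus came mostly from IgG replicate 1.

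DNAJC4 (chr11:64230432-64234281) gave 23.5 and 25.5 CPM after anti-PHGDH, against 0 and 9.50 CPM after IgG. Its log2 fold change came to 2.97 (SE 2.64, limma adjusted p = 0.677). With IgG replicate 1 left out it was 1.28. Within number 2 DNAJC4 was 2.68 times as high with anti-PHGDH (exact 95% interval 1.41 to 5.35). DNAJC14 (chr12:55820985-55830775) gave 7.43 and 8.22 CPM after anti-PHGDH, against 0 and 2.53 CPM after IgG, a ratio within number 2 of 3.25 (exact 95% interval 0.936 to 14.2). These 2 genes kept a gap of at least 2-fold to IgG replicate 2 in both anti-PHGDH libraries, at low levels. DNAJC19, a J protein of mitochondrial import, gave 31.8 and 73.98 CPM after anti-PHGDH, against 35.9 and 127 CPM after IgG (log2 fold change -0.47, SE 1.91, limma adjusted p = 0.869). In both groups of DNAJC19 the library numbered 1 was lower, and the groups overlapped.

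Within replicate number 2, where both libraries had similar depth, 5 of 54 members were at least 2-fold higher with anti-PHGDH on CPM + 1 (DNAJC16, DNAJB2, DNAJC4, DNAJC14 and DNAJC17), beside 12.5% of all genes tested. DNAJB4 alone was 2-fold lower, beside 1.97%. Anti-PHGDH replicate 2 was above IgG replicate 2 for 23 of 54 members (42.6%), beside 63.1% of all genes tested. The ratio of CPM had a median of 0.923 over the 54 members. Its exact 95% interval lay above 1 for 9 members, below 1 for 9 and included 1 for 36. The interval compares these 2 libraries and not the antibodies. It was not counted over all genes tested and narrows with more reads, so these counts have no background share to be read against.

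The 9 members below 1 were HSP90AA1, HSP90AB1, HSP90B1, HSPD1, HSPE1, HSPB11, DNAJB4, DNAJC1 and DNAJC19. HSP90AA1 was at 0.733 (interval 0.694 to 0.774), HSPE1 at 0.619 (0.542 to 0.707) and DNAJC19 at 0.581 (0.448 to 0.749). The 9 members above 1 were HSPB1, HSPA8, CCT3, CCT4, DNAJB2, DNAJC4, DNAJC8, DNAJC16 and DNAJC17. HSPA8 was at 1.15 (1.03 to 1.29), CCT4 at 1.19 (1.09 to 1.31) and DNAJC8 at 1.41 (1.17 to 1.71). The abundant genes of cytosolic folding therefore lay on both sides.

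**Figure D4:**
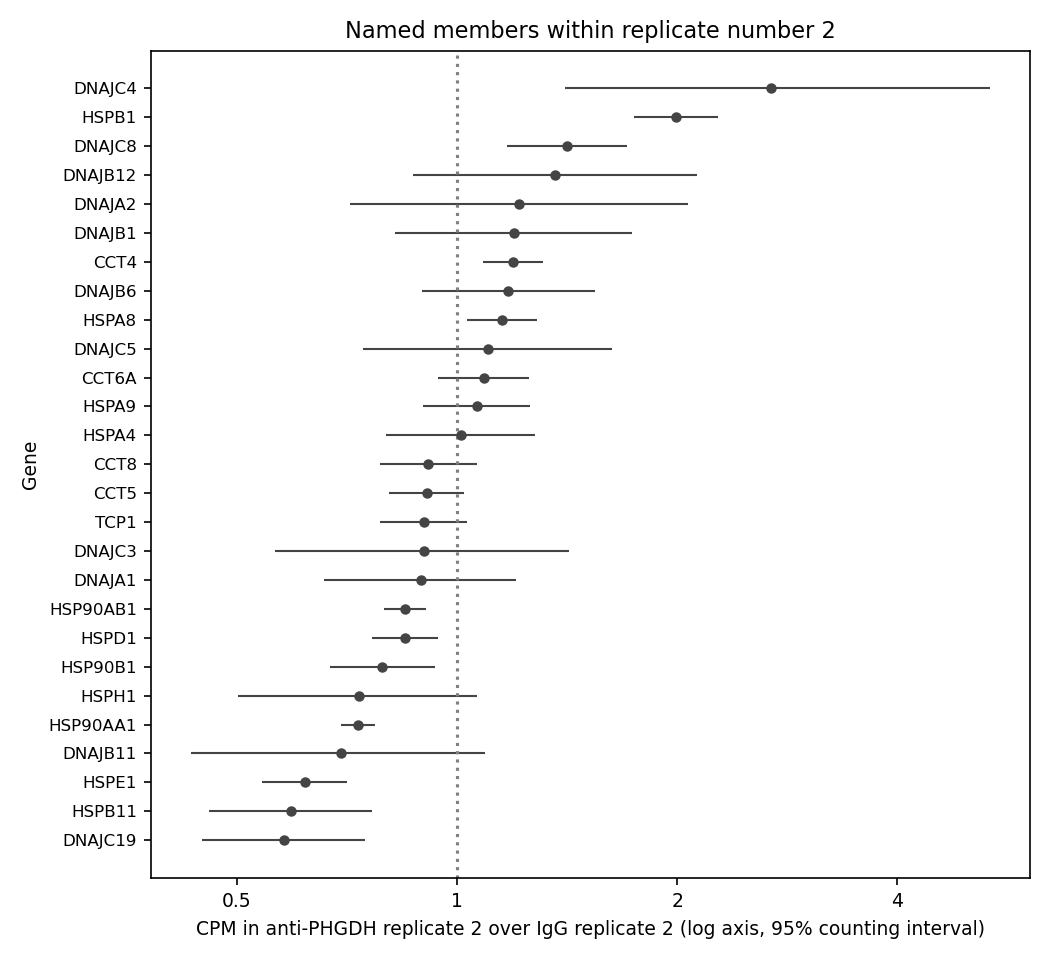
Ratio of CPM in anti-PHGDH replicate 2 to IgG replicate 2 (log axis) for the 27 members named with a fold change, with exact 95% intervals that cover counting error only. DNAJC4 (2.68) and HSPB1 (1.99) lie highest, and DNAJC19 (0.581), HSPB11 (0.594) and HSPE1 (0.619) lowest.

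Across number 1 and number 2 of the anti-PHGDH antibody, 11 of 54 members (20.4%) were at least 2-fold lower in replicate 1, beside 14.4% of all genes tested, and 1 member, DNAJB4, was 2-fold higher (13.5% of all genes). The 11 included HSP90AA1, HSP90AB1, HSPD1, HSPE1, HSPA4, HSPA9 and CCT4. HSPE1 held 0.246 and HSP90AA1 0.265 times its replicate 2 level, while TCP1 held 1.02, DNAJA2 1.02 and DNAJC3 1.10 times. Replicate 1 also had the larger share of mitochondrial reads, and with those reads left out the class sums of replicate 1 were 0.382 (HSP90) to 1.52 (DNAJB) times those of replicate 2. The members tested correlated with Pearson's r = 0.95 between the anti-PHGDH libraries, 0.97 between the libraries numbered 2 and 0.77 between the IgG libraries, over 54 genes that share depth and library.

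By compartment, the 7 members tested of the endoplasmic reticulum list had a median log2 fold change of -0.19, and 0 of 7 were higher with anti-PHGDH within number 2, beside 63.1% of all genes tested. The list was chosen with earlier results of these data known and does not hold every member of that compartment. DNAJB12, for example, is not on it and was higher within number 2 (36.2 against 26.6 CPM). The count of 0 of 7 therefore describes the listed genes and not the compartment. The differences of the 7 ran from -0.77 to -0.01 on the log2 scale. The counting interval of the ratio lay below 1 for HSP90B1 and DNAJC1. It included 1 for HSPA5, HSPA13, DNAJB11, DNAJC3 and DNAJC10. The 4 tested of the mitochondrial list (HSPA9, HSPD1, HSPE1 and DNAJC19) had a median log2 fold change of -1.41. All 4 were at least 2-fold lower in anti-PHGDH replicate 1 than in replicate 2, beside 14.4% of all genes tested. The larger share of mitochondrially encoded reads in replicate 1 lowers its CPM for all other genes. With those reads left out, the HSPD and HSPE sum of replicate 1 was 0.506 times that of replicate 2, in place of 0.395. The count was not repeated that way. The 9 of the cytosolic core list had a median of -0.80, with 3 positive. The 8 tested of the HSF1 target list had a median of -1.19, with HSPB1 and DNAJB1 positive. The median of all genes tested was 1.92. With IgG replicate 1 left out, the medians were -0.48 (endoplasmic reticulum), -1.07 (mitochondrial), -0.36 (cytosolic core) and -0.46 (HSF1 targets), and that of all genes 0.14. All 4 lists gave 0 calls at a limma adjusted p under 0.05.

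Other genes of the chaperone network gave the same count. Of 40 co-chaperones and regulators that are no members, 35 were tested and 0 passed in either direction (limma), with a median log2 fold change of 2.15. Both anti-PHGDH values lay above both IgG values for 6 (17.1%), beside 38.3% of all genes tested, and below both for 7 (20.0%), beside 6.16%. BAG3, a stress-inducible HSP70 cofactor, gave 16.04 and 13.2 CPM after anti-PHGDH, against 0 and 5.07 CPM after IgG and was the 1 gene of the list at least 2-fold higher in every pair, beside 9.3% of all genes tested. PTGES3, the p23 cofactor of HSP90, gave 358 and 583 CPM after anti-PHGDH, against 4186 and 608 CPM after IgG. STIP1, which links HSP70 to HSP90, gave 62.4 and 216 CPM after anti-PHGDH, against 0 and 240.0 CPM after IgG. These cofactors of HSP90 thus stood at opposite ends in IgG replicate 1.

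The other 31 members did not pass the filter. Of these, 16 were listed at 0 in all 4 libraries, among them HSPA1L, DNAJB8, DNAJC15, DNAJC18 and the read-through symbols HSPE1-MOB4, HSPB2-C11orf52 and DNAJC25-GNG10. The other 15 were at or below 6.54 CPM with 1 exception. DNAJB9, a BiP cofactor of the unfolded protein response, gave 3.57 and 3.29 CPM after anti-PHGDH, against 29.4 and 4.43 CPM after IgG, so that IgG replicate 1 again stood above the rest.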

How the data were processed

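RIP-seq libraries of HEK293T cells were grouped by the antibody in their labels, 2 with anti-PHGDH and 2 with IgG. The authors deposited CPM values (reads per 1000000 assigned reads) for each gene symbol. STAR 2.5.4b, featureCounts and hg38 are named per the submitters' processing notes, without their roles; the annotation, strand setting and treatment of multi-mapping reads are not given in the sources used here. Whole reads were recovered from the steps of the CPM (99.98% to 100% of values whole to within 0.0005 CPM), giving 1216477 to 3875746 reads a library.

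Members were chosen by symbol, and the members and lists were chosen with earlier results of these data known. Of the 85 members, 84 matched RefSeq (GRCh38.p14) by symbol and HSPB11 through a synonym. A gene was tested if 2 or more libraries held it at 5 CPM or above (9524 genes, of them 54 members). The test was run on log2(CPM + 1) with limma 3.58.1 in R 4.3.3, with a mean-variance trend and Benjamini-Hochberg adjustment over all genes tested. The prior degrees of freedom were estimated as infinite, so the variance of each gene was replaced by the trend value at its level. Fold changes are on that scale, which understates changes of low genes. Members named with a fold change were the 3 with the highest mean CPM in each of the 8 classes, then the 3 highest and the 3 lowest fold changes among the rest. Alternatives included count tests of the recovered reads (DESeq2 1.42.0, and the quasi-likelihood test of edgeR 4.0.16), other pseudocounts, filters and scalings, a replicate block and each library left out. Deviations of same-numbered libraries from their group means correlated at 0.0058 over the 9524 genes.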

Additional observations from a re-analysis of the deposited data

Results flagged for a closer look

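HSPB1P1, a pseudogene symbol that was left out of the members, had a signal in an entry outside the comparisons that lay above both control libraries. It gave 2.97 and 2.47 CPM after anti-PHGDH, against 0.774 and 0 CPM after IgG, on 10, 3, 3 and 0 reads. How reads shared with HSPB1 were counted is not stated.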

How the results depend on the processing

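The count of members past the threshold was 0 in each direction under every alternative run except without IgG replicate 2. There, with the lone IgG library assumed to vary like the anti-PHGDH group, 33 were higher (74.9% of all genes tested) and 9 lower (10.8%); leaving out 1 library gave ranges of 0 to 33 and 0 to 9. With the replicate block, 0 members were called; the libraries share only a number, so this is no paired analysis. The members' median log2 fold change of 1.13 was -0.66 with the filter at 20 CPM, -1.36 after median centring of libraries and -0.48 after quantile normalization (all genes 2.13, -0.57 and -0.05, against 1.92), and -0.21 to 2.65 with 1 library left out. The 2 members at least 2-fold higher in every pair numbered 1 with the 20 CPM filter, and 0 each with the pseudocount at 5, after centring, after quantile normalization and at a fold of 4, and 2 to 32 with 1 library left out (4 without anti-PHGDH replicate 1). The 0 members 2-fold lower became 2 after centring and 1 after quantile normalization, and 0 to 14 with 1 library left out (7 without anti-PHGDH replicate 2). The log2 ratio of class sums with 1 library left out, an alternative chosen after seeing the data, ran from -2.24 to -0.16 (HSPA and HSPH), -2.21 to -0.46 (HSP90), 0.22 to 2.35 (HSPB), -2.15 to -0.81 (HSPD and HSPE), -1.92 to -0.28 (TCP1 and CCT), -1.46 to -0.18 (DNAJA), 0.25 to 1.70 (DNAJB) and -1.37 to -0.18 (DNAJC, 0.65 without DNAJC3). Signs turned for DNAJB6 (-1.44), HSPB1 (-1.16) and HSPB11 (-1.14) after centring, for HSPB11 also with quantile normalization (-0.87), edgeR (-0.36) and DESeq2 (-0.13), and for DNAJB11 without mitochondrial genes (0.055). With 1 library left out, DNAJA2 ran from -1.82 to 0.29, DNAJB11 from -0.48 to 0.087, DNAJC19 from -1.37 to 0.43 and HSPB11 from -1.22 to 3.93. Median centring lowered the log2 fold change of every gene by the same amount, so the turns after centring are that common shift. The cause of the other turns was not tested. Where IgG replicate 1 is at 0, its depth limits the level to 0.774 CPM.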

Other observations

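Values of some other cofactors of the chaperone cycle, chosen after their values were seen, also differed between IgG replicate 1 and the other libraries. SEC63, the J protein of the translocation channel, gave 51.4 and 74.8 CPM after anti-PHGDH, against 1866 and 103 CPM after IgG. BAG4, an HSP70 cofactor, gave 48.4 and 24.7 CPM after anti-PHGDH, against 1321 and 19.0 CPM after IgG, while BAG5 gave 25.3 and 19.7 CPM after anti-PHGDH, against 0 and 14.6 CPM after IgG. CDC37, which brings kinases to HSP90, gave 32.4 and 159 CPM after anti-PHGDH, against 0 and 173 CPM after IgG. Of the 35 network genes tested, 19 (54.3%) were at 0 in IgG replicate 1, beside 61.9% of all genes tested, and 14 (40.0%) were at least 2-fold lower in anti-PHGDH replicate 1 than in replicate 2, beside 14.4% of all genes tested.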
